A study of Mus with 2 samples.

Results

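The genes described here are 9 members of the amino acid stress response governed by the transcription factor ATF4: Atf4, Ddit3, Trib3, Asns, Chac1, Sesn2, Psat1, Phgdh and Slc7a11. These genes were chosen by name, with earlier results of these data known. They are 9 of 32285 features in each of 2 Visium sections, in which the RNA of a 10 µm tumor slice was captured on a grid of barcoded spots. Both tumors were grown from CT26, a mouse colon carcinoma line, under the skin of BALB/c mice labelled as 6 to 8 weeks old. The rIL7 section came from the group given 10 µg of recombinant mouse interleukin 7 into the peritoneum on days 11 and 13 after transplantation, and the control section from the group given PBS. The labels place both at day 15 and do not say how many mice each section stands for. Each group held 1 section, so no difference between the sections could be tested, and mouse, tumor, tissue block and slide position cannot be told apart from the treatment. Every interval below is an exact 95% interval that covers counting error only.

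When amino acids run short, uncharged tRNA activates the kinase GCN2, which phosphorylates the translation factor eIF2alpha. General translation then slows while the Atf4 mRNA is translated more, so that much of the control over ATF4 is exerted on translation. ATF4 protein switches on genes for amino acid synthesis and uptake, for tRNA charging and, under lasting stress, for the transcription factor CHOP and its partners in cell death. The same branch is reached from unfolded proteins through PERK, and Slc7a11 is shared with NRF2, the factor of the oxidative stress response.

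The control section kept 2219 of 2221 spots over tissue with 22951678 UMIs in all, and the rIL7 section 1950 of 1951 spots with 25729233. The median spot held 9623 UMIs in the control tumor and 12921.5 in the rIL7 tumor. The level of a gene is given as CPM, its UMIs per 1000000 UMIs of the same spots, and levels are compared between spots or sections, never between genes. A spot covers several cells, so fewer cells of a type and less RNA per cell cannot be told apart. To show the spread inside a section, 4 quadrants were cut at the middle row and column of its spots, and these are not replicates.

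Between the whole sections, 8 of the 9 genes had a lower level in the rIL7 tumor and 1, Slc7a11, a higher one. Trib3 and Chac1 were lower by more than 1.5-fold, the size taken here as a call, and Slc7a11 was higher by more than that. Across the 10721 genes whose mean reached 5 CPM, 2.2% were lower by that much and 3.26% higher. The median log2 ratio of the 9 genes was -0.37, that of Phgdh, beside 0.00 (-0.0047 before rounding) for all genes tested. For 6 of the 9 genes every rIL7 quadrant lay below every control quadrant, where 11.0% of all genes were separated in that direction and 10.0% in the other.

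Atf4 lies on chromosome 15 from 80255184 to 80257545 in GRCm38, the RefSeq build used for all positions here. Its mRNA stood at 356 CPM in the control tumor (8182 UMIs) and at 350 CPM in the rIL7 tumor (8995 UMIs), a ratio of 0.981 (0.952 to 1.01). The mRNA of the factor itself thus differed by less than counting error, and its quadrants overlapped, with 300.3 to 420 CPM in the control tumor and 323 to 386 CPM in the rIL7 tumor. Atf4 protein was not measured.

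Ddit3 (chromosome 10, 127290793 to 127296291) encodes CHOP, which ATF4 induces and then partners. Its level was 51.3 CPM in the control tumor (1177 UMIs) and 38.4 CPM in the rIL7 tumor (988 UMIs), a ratio of 0.749 (0.687 to 0.816). The control quadrants, from 43.5 to 56.4 CPM, all stood above the rIL7 quadrants, from 36.3 to 40.1 CPM. The RefSeq spans of Ddit3 and its neighbour Mars1 overlap by 71 bases, and how the counting treated strand is not given in the sources used here, so the split of reads between both is uncertain there.

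Trib3 (chromosome 2, 152337425 to 152344060) encodes a pseudokinase that ATF4 and CHOP induce and that dampens both. It was at 14.8 CPM in the control tumor (340 UMIs) and at 5.67 CPM in the rIL7 tumor (146 UMIs), a ratio of 0.383 (0.313 to 0.466) or a level 2.61-fold (2.14 to 3.19) higher in the control tumor. No quadrants overlapped: the lowest control quadrant had 11.1 CPM and the highest rIL7 quadrant 7.50 CPM. With every spot thinned at random to 5900 UMIs, 7.99% of control spots and 3.21% of rIL7 spots held a Trib3 UMI (13.9% and 6.82% before thinning). No region of a tumor is known to lack these genes, so no share of spots from free RNA could be set beside those shares.

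Chac1 (chromosome 2, 119351242 to 119354326), whose product breaks down glutathione, was the other gene past the fold limit in that direction. It had 8.93 CPM in the control tumor (205 UMIs) and 3.26 CPM in the rIL7 tumor (84 UMIs), a ratio of 0.366 (0.280 to 0.473) or 2.74-fold (2.11 to 3.57) more in the control tumor. Its quadrants ran from 6.29 to 12.1 CPM in the control tumor and from 2.93 to 4.05 CPM in the rIL7 tumor, again without overlap. The intervals of Trib3 and Chac1 overlapped each other and lay entirely below those of the other 7 genes.

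Sesn2 (chromosome 4, 132492804 to 132510456) encodes a leucine-binding protein that restrains the growth kinase complex mTORC1. It was at 22.2 CPM in the control tumor (509 UMIs) and 17.5 CPM in the rIL7 tumor (451 UMIs), a ratio of 0.790 (0.695 to 0.899). Its quadrants overlapped, since 1 rIL7 quadrant reached 20.5 CPM and 1 control quadrant was at 19.7 CPM.

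The 3 enzymes of amino acid synthesis differed by similar amounts. Asns, asparagine synthetase (chromosome 6, 7675165 to 7693209), was at 66.7 CPM in the control tumor (1532 UMIs) and 50.8 CPM in the rIL7 tumor (1307 UMIs), a ratio of 0.761 (0.706 to 0.820). Phgdh (chromosome 3, 98313171 to 98339969), which commits a glycolytic intermediate to serine, was at 205 and 158 CPM (4701 and 4069 UMIs), a ratio of 0.772 (0.740 to 0.805). Psat1 (chromosome 19, 15905123 to 15925059), the next enzyme of that path, was at 183 and 141 CPM (4192 and 3629 UMIs), a ratio of 0.772 (0.738 to 0.808). The quadrants of all 3 were apart and lower in the rIL7 tumor. The closest approach was in Psat1, with 154 CPM in the lowest control quadrant and 151 CPM in the highest rIL7 quadrant.

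Slc7a11 (chromosome 3, 50364936 to 50499087), the cystine and glutamate exchanger that supplies cysteine for glutathione, went the other way. It was at 5.45 CPM in the control tumor (125 UMIs) and 8.67 CPM in the rIL7 tumor (223 UMIs), a ratio of 1.59 (1.27 to 2.00). One control quadrant, at 7.07 CPM, lay above the lowest rIL7 quadrant, at 6.93 CPM, so the quadrants overlapped. After thinning, 2.75% of control spots and 4.55% of rIL7 spots held a Slc7a11 UMI (5.41% and 10.4% before). With spots weighted equally its log2 ratio was 0.50 and below the fold limit.

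**Figure D1:**
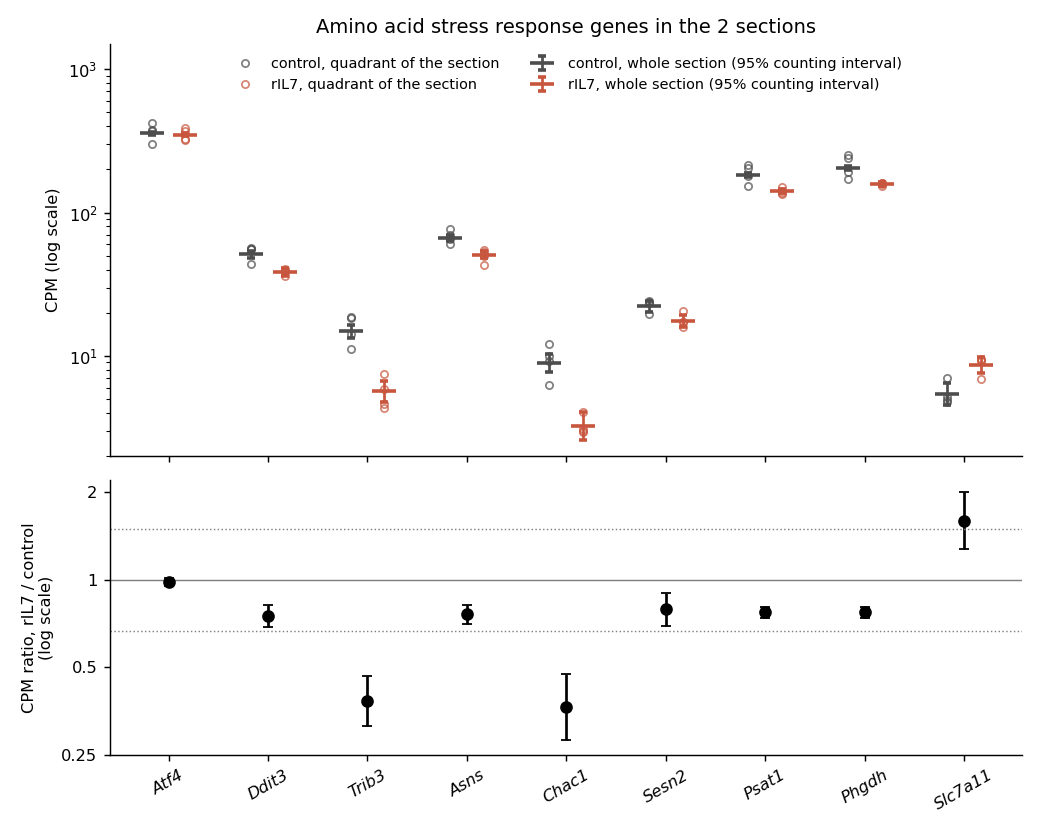
Upper panel: CPM of the 9 genes on a log scale, with horizontal marks for the whole section, bars for the 95% counting interval and open circles for the 4 quadrants. Lower panel: ratio of the rIL7 to the control section on a log scale with its 95% counting interval, dotted lines at 1.5-fold; Trib3 (0.383) and Chac1 (0.366) sit lowest and Slc7a11 (1.59) is the one gene above 1.

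The makeup of the tissue differed as well. The summed level of Rpl39l and Baiap2l1, both used here as marks of CT26 cells, was 1293 CPM in the control tumor (quadrants 1215 to 1332) and 1043 CPM in the rIL7 tumor (935 to 1149). The ratios of these marks were 0.877 for Rpl39l and 0.771 for Baiap2l1, so that of Baiap2l1 was close to those of Ddit3, Asns, Sesn2, Psat1 and Phgdh, and those of Trib3 and Chac1 were lower. All 7 measured genes of the T cell list (10 genes) were at least 1.5-fold higher in the rIL7 tumor, and the list's sum was 44.5 CPM (quadrants 31.8 to 54.5) and 148 CPM (102 to 193). Macrophage genes summed to 4907 and 6021 CPM and neutrophil genes to 158 and 264 CPM in the control and rIL7 sections, with overlapping quadrants for both lists.

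The 9 genes were therefore also compared among thinned spots in the same tertile of CT26 marker UMIs, with limits at 5 and 8 UMIs. The lowest, middle and highest tertiles held 502, 786 and 714 control spots and 806, 682 and 381 rIL7 spots. Psat1 was lower in the rIL7 tumor in each tertile, with ratios of 0.696, 0.712 and 0.765 from the lowest to the highest, as was Phgdh with 0.769, 0.711 and 0.750. Trib3 had ratios of 0.287 (0.167 to 0.478), 0.468 (0.285 to 0.749) and 0.469 (0.241 to 0.853). Over whole sections the ratio was 0.772 for Psat1 and for Phgdh and 0.383 for Trib3. Ddit3 had ratios of 0.653 (0.525 to 0.813), 0.777 (0.629 to 0.958) and 0.657 (0.498 to 0.858), past 1.5-fold in the lowest and highest tertiles. There, 4.15% and 5.08% of all genes tested were lower by that much. Chac1 had ratios of 0.264 (0.118 to 0.552) and 0.256 (0.0890 to 0.602) in the lowest and highest tertiles, but of 0.835 (0.452 to 1.51) in the middle tertile, where it rested on 29 control and 21 rIL7 UMIs. Slc7a11 was higher in the rIL7 tumor in each tertile, with ratios of 1.95 (1.07 to 3.76), 1.61 (0.877 to 3.02) and 1.25 (0.588 to 2.58). Asns had ratios of 0.690 (0.571 to 0.834), 0.758 (0.634 to 0.903) and 0.790 (0.631 to 0.986). Sesn2 had 0.757 (0.551 to 1.04), 0.840 (0.609 to 1.16) and 0.819 (0.544 to 1.21), with each interval including 1. Atf4 had 0.953 (0.883 to 1.03), 0.921 (0.858 to 0.989) and 0.938 (0.859 to 1.02), lower beyond counting error in the middle tertile only. Marker levels inside a tertile and other cell types in the spots were not matched, and their part in these differences was not tested.

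The rest of the pathway was read from lists of genes with known roles. Of 13 aminoacyl-tRNA synthetases, which load tRNAs with amino acids, none was past 1.5-fold, 12 were lower in the rIL7 tumor, and the median log2 ratio was -0.25. Iars had the lowest ratio of them, 0.722 (0.682 to 0.764), while Wars, which interferon also induces, stood at 1.12 (1.03 to 1.21). All 7 measured of 9 amino acid transporters were lower, with a median of -0.40, and 2 were past the limit: the glycine carrier Slc6a9, at 19.3 CPM in control and 6.92 CPM in rIL7 tissue, and the neutral amino acid carrier Slc1a4, at 11.5 and 5.64 CPM. Among 13 enzymes of serine, glycine, one-carbon and related amino acid metabolism, 9 were measured and 8 of these were lower, with a median of -0.45. The alanine aminotransferase Gpt2, at 24.0 and 14.5 CPM, was the 1 past the limit, Mthfd2 had a ratio of 0.695 (0.638 to 0.756), and Mthfd1l was higher at 1.21 (1.11 to 1.32).

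Other lists around the same pathway were read in the same way. The median log2 ratio was 0.01 for 14 genes of the unfolded protein response, with none past the limit, and Hspa5, the main chaperone of the endoplasmic reticulum, had a ratio of 1.01 (0.984 to 1.03). Herpud1, which ATF4 also induces, was the lowest of that list at 0.760 (0.708 to 0.817). Of 8 kinases, phosphatase subunits and regulators acting on eIF2alpha none was past the limit, the median was -0.02, and Eif2ak4, the gene of GCN2, had a ratio of 1.14 (1.02 to 1.27). The 8 partners and stress transcription factors were mixed, with Cebpb past the limit and lower (241 and 146 CPM in the control and rIL7 sections) and Fos, Atf3 and Batf2 past it and higher. A list of 12 other genes linked to ATF4, 10 of them measured, had none past the limit and a median of -0.19. Slc7a11 is also 1 of 10 genes of the NRF2 list, of which 9 were measured. In that list 8 were higher, the median was 0.17, and Hmox1, heme oxygenase, was past the limit beside Slc7a11 at 18.7 CPM in control and 104 CPM in rIL7 tissue.

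It was next asked where in the tissue these genes were read. Distance was counted in grid steps from the outer outline of the largest piece of tissue, and edge spots were those within 2 steps (401 in the control and 330 in the rIL7 tumor), against 1806 and 1599 interior spots. Median depth was 10901 UMIs at the edge and 9482 in the interior of the control section, and 11165.5 and 13162 in the rIL7 tumor.

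At the edge of the control tumor 8 of the 9 genes were higher than in its interior, and Atf4 was lower. Chac1 was the 1 gene past 1.5-fold, at 13.0 CPM at the edge (58 UMIs) and 7.99 CPM inside (147 UMIs), a ratio of 1.62 (1.18 to 2.21). There, 1.28% of 10675 genes passed that fold upward at the edge and 2.17% downward. The intervals of 3 more genes lay above 1: Trib3 with 20.1 and 13.5 CPM, a ratio of 1.49 (1.15 to 1.90), Phgdh with 1.25 (1.17 to 1.34) and Psat1 with 1.19 (1.11 to 1.28). Atf4 was at 328 CPM at the edge and 364 CPM inside, a ratio of 0.902 (0.852 to 0.955). The intervals of Ddit3, Asns, Sesn2 and Slc7a11 included 1.

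At the edge of the rIL7 tumor none of the 8 members past the level minimum reached 1.5-fold, where 8.86% of 10822 genes passed it upward and 6.0% downward. Trib3 was at 5.61 CPM at the edge and 5.73 CPM inside, a ratio of 0.978 (0.592 to 1.55). Chac1, under the minimum, was at 2.55 CPM (10 UMIs) and 3.42 CPM (74 UMIs), a ratio of 0.745 (0.343 to 1.45). Psat1 and Phgdh were both higher at the edge, with ratios of 1.14 (1.04 to 1.24) and 1.14 (1.05 to 1.24), so the serine path pair was higher there in both sections. Slc7a11 had nearly the same edge ratio in both, 1.37 (0.882 to 2.08) and 1.36 (0.951 to 1.89), with intervals that included 1.

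In 4 bins of distance the control level of Chac1 was lower at each further bin, at 13.0 CPM for steps 1 to 2, 10.1 for steps 3 to 5, 7.78 for steps 6 to 9 and 6.56 for step 10 and beyond. The intervals of adjacent control bins overlapped. In the same bins of the rIL7 section Chac1 was at 2.55, 4.04, 3.08 and 3.31 CPM, with overlapping intervals. Trib3 went from 20.1 to 11.2 CPM between the outermost and innermost bins of the control section and stayed between 4.62 and 6.54 CPM in the rIL7 tumor. Thus the ratio of the sections was furthest from 1 in the outermost bin, at 0.279 (0.166 to 0.448) for Trib3 and 0.196 (0.0895 to 0.388) for Chac1. For Trib3 it was 0.439 (0.285 to 0.662) at steps 3 to 5 and 0.304 (0.190 to 0.472) at steps 6 to 9, so it was not graded. In the innermost bin the ratio was 0.533 (0.377 to 0.751) for Trib3 and 0.504 (0.316 to 0.798) for Chac1. Both genes were lower in the rIL7 tumor at every depth. Psat1, Phgdh, Asns and Ddit3 were also lower in all 4 bins, with ratios between 0.695 and 0.901.

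Slc7a11 was higher in the rIL7 tumor in all 4 bins, with ratios of 1.62, 1.60, 1.48 and 1.62, and the interval excluded 1 in the innermost bin (1.13 to 2.37). Its level was lowest in the bin of steps 6 to 9 of both sections, at 3.46 CPM in control and 5.13 CPM in rIL7 tissue. Atf4 was lowest in the outermost and highest in the innermost bin of the control tumor, at 328 and 394 CPM, and its ratio between the sections moved from 1.05 (0.975 to 1.13) in the outermost to 0.925 (0.881 to 0.971) in the innermost bin. Sesn2 differed most in the outermost bin, with a ratio of 0.580 (0.415 to 0.802), and did not differ beyond counting error at steps 6 to 9, with 1.02 (0.795 to 1.31). The CT26 marks also differed most in the outermost bin, with ratios of 0.590 for Baiap2l1 and 0.695 for Rpl39l there and of 0.750 and 0.986 in the innermost. Keratinocyte genes were higher at the control edge (126 and 40.7 CPM) and skeletal muscle genes in its interior (84.8 and 20.4 CPM), and the part of any of these in the levels by distance was not tested.

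**Figure D2:**
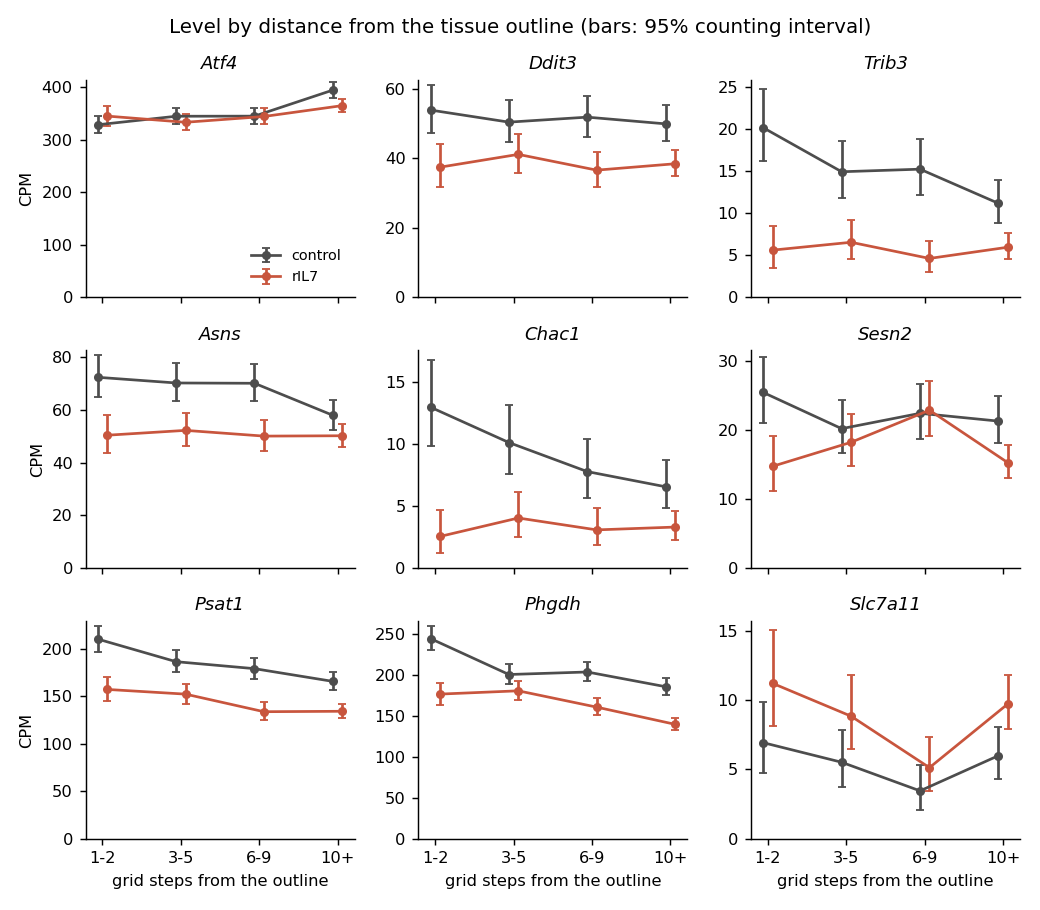
CPM of each gene (vertical axis, from 0) in spots 1-2, 3-5, 6-9 and 10 or more grid steps from the tissue outline (horizontal axis), control in grey and rIL7 in red, with 95% counting intervals. Chac1 and Trib3 are lowest in the innermost control bin, at 6.56 and 11.2 CPM, and stay below the control level at each distance in the rIL7 tumor.

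It was then asked how the genes relate to spots with Arg1, which encodes arginase, an arginine-degrading enzyme made by some macrophages and other myeloid cells. Since a deeper spot is more often positive, spots were first thinned to 5900 UMIs, which left out 217 control and 81 rIL7 spots that were shallower. A spot was then called Arg1-positive with at least 1 Arg1 UMI. That held for 134 of 2002 control spots (6.69%) and 602 of 1869 rIL7 spots (32.2%), and over whole sections Arg1 stood at 12.4 and 85.7 CPM.

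**Figure D3:**
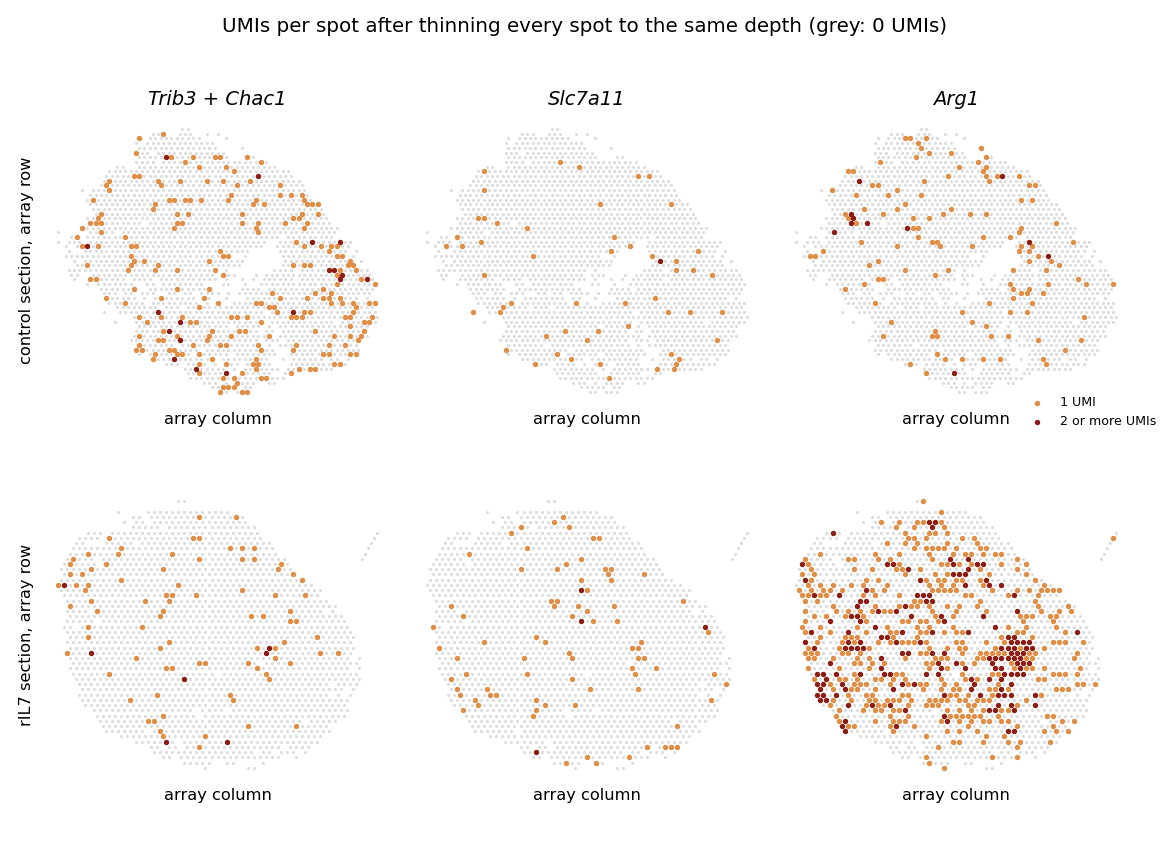
Each dot is a spot at its array row and column, thinned to 5900 UMIs: grey for 0 UMIs, orange for 1 and dark red for 2 or more of Trib3 and Chac1 together, of Slc7a11 and of Arg1. Trib3 and Chac1 dots are denser in the control tumor, Arg1 dots in the rIL7 tumor (602 spots against 134), and Slc7a11 is sparse in both.

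Slc7a11 was the 1 member past 1.5-fold and higher in Arg1-positive spots of both sections. In the rIL7 section it was at 10.7 CPM in positive spots (38 UMIs) and 6.82 CPM in negative ones (51 UMIs), a ratio of 1.57 (1.002 to 2.43), where 1.03% of 10768 genes were at least 1.5-fold higher. Spots with 0, 1 and 2 or more Arg1 UMIs had 6.82, 9.24 and 14.6 CPM. In the control section it was at 13.9 CPM in positive spots and 4.08 CPM in negative ones, a ratio of 3.41 (1.59 to 6.69) that rested on 11 UMIs in the positive spots, where 3.68% of 10651 genes were at least 1.5-fold higher. In this random draw of the thinning the level was higher in positive spots in 4 of 4 quadrants of either section. The ratios were 1.73 to 5.62 in the control and 1.03 to 2.28 in the rIL7 tumor. Positive spots of the control quadrants held only 4, 4, 1 and 2 UMIs. In the same draw Chac1, Sesn2 and Phgdh were lower in 4 of 4 control quadrants. Positive spots there held only 0, 1, 0 and 1 Chac1 UMIs and 4, 2, 2 and 2 Sesn2 UMIs. Sesn2 was higher in 4 of 4 rIL7 quadrants, with ratios from 1.03 to 1.83. How many of all genes kept 1 direction in 4 of 4 quadrants was not counted, for Slc7a11 or for these genes.

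The size of this difference depended on the thinning. Over all kept spots at full depth, Slc7a11 was at 7.78 and 5.10 CPM in positive and negative spots of the control section, a ratio of 1.52 (0.925 to 2.41), and at 9.55 and 7.50 CPM in the rIL7 tumor, a ratio of 1.27 (0.963 to 1.69). Those ratios kept the direction, but their intervals included 1. At full depth positive spots were deeper than negative ones, with medians of 11068.5 and 9475 UMIs in the control section and 13998 and 11412 in the rIL7 section. Under another random draw the rIL7 log2 ratio was 0.33 in place of 0.65 and below the fold limit, so the difference is near what these counts can resolve.

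By distance, the level in the rIL7 tumor was 10.7 CPM in positive spots, 6.92 CPM in spots next to one and 6.52 CPM farther away, and in the control tumor 13.9, 4.79 and 3.78 CPM. The spots next to a positive one were thus close to the farther ones and below the positive spots themselves. Several lists moved with Arg1 in the rIL7 tumor: hypoxia genes summed to 4274 CPM in positive and 3255 CPM in negative spots (4 of 12 genes past 1.5-fold and higher), neutrophil genes to 339 and 228 CPM, and T cell genes to 120 and 172 CPM. Macrophage genes summed to 5683 and 6266 CPM, with 8 of 10 genes lower in positive spots and 0 past 1.5-fold. The CT26 marks summed to 1083 and 1038 CPM. In control tissue hypoxia genes summed to 3944 and 3335 CPM. Among rIL7 spots over the median of hypoxia UMIs, the Slc7a11 ratio was 1.56 (0.879 to 2.80), and among those at or under it 1.27 (0.548 to 2.73). In the control section the same split gave 4.60 (1.74 to 11.0) and 2.11 (0.408 to 6.88), with 8 and 3 UMIs in the positive spots. The part of the other lists in the Slc7a11 difference was not tested.

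For the other 8 genes the ratios of Arg1-positive to Arg1-negative thinned spots of the rIL7 section lay between 0.653 for Chac1 (9 and 29 UMIs) and 1.26 for Sesn2 (74 and 124 UMIs), and all 8 intervals included 1. Atf4 was at 363 and 344 CPM there, a ratio of 1.06 (0.988 to 1.13), and Phgdh at 158 and 160 CPM, a ratio of 0.989 (0.893 to 1.09). At full depth, where positive spots were deeper, Phgdh was lower in them, with a ratio of 0.909 (0.854 to 0.968). The intervals of the other 7 genes still included 1. By Arg1 level, Atf4 was at 344 CPM (331 to 357) in spots with 0 Arg1 UMIs, 351 CPM (329 to 374) with 1 and 397 CPM (358 to 439) with 2 or more. Both genes were highest in the innermost distance bin of this section. From the outermost bin inward Arg1 was at 56.6, 46.0, 68.1 and 126 CPM and Atf4 at 345, 333, 344 and 365 CPM. The part of position in the rise of Atf4 with Arg1 was not tested. Over the 8 members past the level minimum, which leave out Chac1 and include Slc7a11, the median log2 ratio was 0.06, beside -0.02 for all genes.

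In the control section Chac1 and Sesn2 were past 1.5-fold and lower in positive spots, where 6.07% of all genes were at least 1.5-fold lower. Chac1 had 2 UMIs in positive and 97 in negative spots, a ratio of 0.287 (0.0343 to 1.07), and Sesn2 10 and 247 UMIs, a ratio of 0.564 (0.267 to 1.06). Neither held: under another draw both were higher in positive spots, and at full depth the ratios were 0.982 (0.624 to 1.49) and 0.836 (0.621 to 1.11). Psat1 was slightly lower in positive spots, at 153 against 186 CPM, a ratio of 0.824 (0.681 to 0.991), but at full depth the ratio was 0.928 (0.844 to 1.02) and its interval included 1.

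The genes Hmox1, Atf3 and Ddit4, set beside the members, differed between the Arg1 classes of the rIL7 section. The NRF2 target Hmox1 was at 179 CPM in positive and 43.7 CPM in negative spots, a ratio of 4.08 (3.57 to 4.68), while in the control tumor it was at 17.7 and 18.1 CPM, a ratio of 0.981 (0.527 to 1.68). Atf3, which ATF4 and other stress pathways induce, had a ratio of 2.44 (1.72 to 3.47) in the rIL7 tumor, and Ddit4, an inhibitor of mTORC1 induced by hypoxia and ATF4, 1.71 (1.35 to 2.16). Also past the limit were the NRF2 target Osgin1 at 1.98 (1.18 to 3.31), the chaperone gene Dnajb9 at 1.53 (1.15 to 2.04) and, lower in positive spots, Slc6a9 at 0.501 (0.265 to 0.890). At full depth Hmox1, Atf3 and Ddit4 stayed past the limit, at 4.16, 2.17 and 1.65, whereas Osgin1 at 1.37 (0.986 to 1.91), Dnajb9 at 1.20 (0.996 to 1.45) and Slc6a9 at 0.721 (0.531 to 0.978) did not. Control tissue gave other values: after thinning Dnajb9 was past the limit and lower in positive spots at 0.555 (0.236 to 1.11, 8 UMIs), Osgin1 was at 0.634 (0.127 to 1.93, 3 UMIs), Ddit4 at 0.740 (0.469 to 1.12) and Atf3 at 0.982 (0.309 to 2.40). None of 13 synthetases and none of 9 measured genes of the serine and one-carbon list was past the limit in the rIL7 section after thinning.

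**Figure D4:**
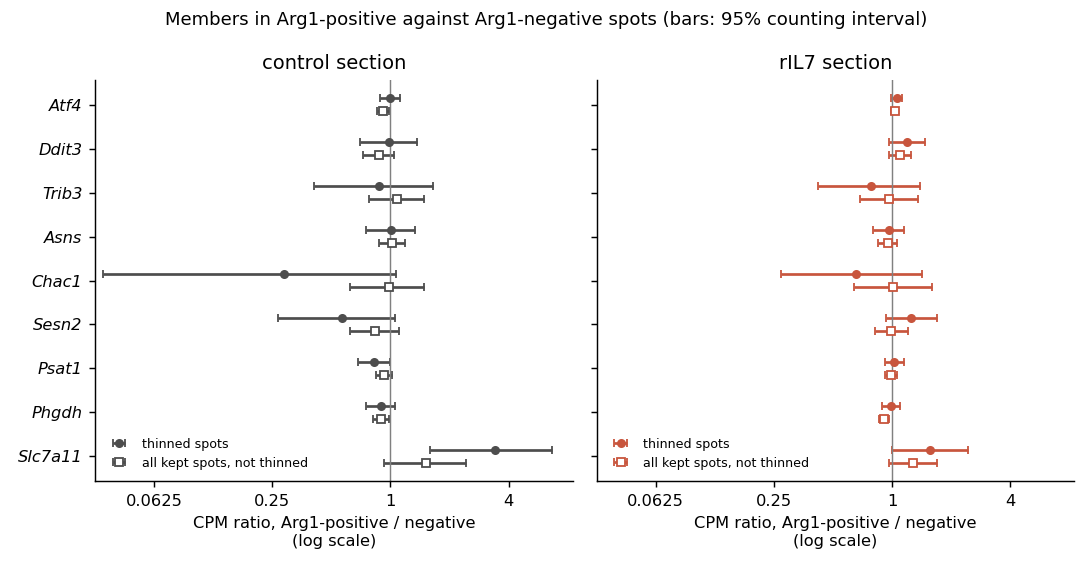
Ratio of CPM in Arg1-positive to Arg1-negative spots (log scale) for each gene, control left and rIL7 right, from spots thinned to 5900 UMIs (filled circles) and from all kept spots at full depth (open squares), with 95% counting intervals. Slc7a11 lies above 1 in all 4 estimates, from 1.27 to 3.41, and the control estimate of Chac1 moves from 0.287 to 0.982 without thinning.

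The last comparison was of the genes with each other across the tissue. Sections were divided into tiles of 6 array rows by 12 array columns with at least 18 kept spots, 63 in the control and 54 in the rIL7 tumor. Tiles of a section share 1 library and their neighbours are not independent, so Spearman's rho is given as a description. Trib3, Chac1 and Slc7a11 had median counts of 5, 3 and 1 UMIs a tile in the control tumor and 2, 1 and 3 in the rIL7 tumor, and a weak rho of theirs cannot be read.

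Over the 36 pairs of members the median rho was 0.23 in the control tumor, from -0.01 to 0.76, and 0.08 in the rIL7 tumor, from -0.29 to 0.52. For the 15 pairs without Trib3, Chac1 and Slc7a11 it was 0.26 and 0.11. Coefficients were wider in control tiles for genes in general: those of 7608 other genes with the sum of the members ran from -0.45 to 0.46 (5th to 95th percentile) there and from -0.31 to 0.29 in rIL7 tiles. The pair of the serine path, Psat1 and Phgdh, had the highest rho in both, at 0.76 and 0.52. Asns went with Psat1 at 0.64 and with Phgdh at 0.57 in the control tumor, and at 0.20 and 0.34 in the rIL7 tumor. Phgdh had a rho of 0.88 with the summed synthetases and 0.80 with the summed proliferation genes in the control tumor, and of 0.52 and 0.63 in the rIL7 tumor.

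With the CT26 marks, Psat1 and Phgdh had a rho of -0.58 and -0.57 in control tiles and of -0.0035 and -0.34 in rIL7 tiles, so tiles with more of the marks did not hold more of either enzyme.

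For Atf4 mRNA, the rho with macrophage genes was -0.71 and -0.56 in the control and rIL7 sections, and with hypoxia genes 0.10 and 0.67. With Psat1 it was 0.26 and 0.08, with Phgdh 0.29 and -0.20, with Ddit3 0.24 and 0.23, and with the summed synthetases 0.46 and 0.0045. With macrophage genes Phgdh had a rho of -0.39 and Psat1 of -0.34 in the control tumor, and of 0.42 and 0.025 in the rIL7 tumor. Slc7a11 had a rho of 0.49 with neutrophil genes in the rIL7 tumor and of 0.17 in the control tumor, and with Arg1 of 0.21 and 0.12. The weak values among these cannot be read, at median counts of 3 Slc7a11 UMIs a tile in the rIL7 tumor and 1 in the control tumor.

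Among 7608 other genes whose mean reached 20 CPM, the 5 whose tile levels were most like the sum of the 9 members in both sections were Anxa2, Slfn4, Ncl, Snx3 and Esd. Anxa2, which encodes an annexin, had a rho of 0.70 in the control and 0.57 in the rIL7 tumor, and Ncl, nucleolin, 0.73 and 0.54. The 3 least alike were Cx3cl1, a chemokine (-0.63 and -0.69), Tmem176a (-0.66 and -0.60) and Dpt, an extracellular matrix gene (-0.60 and -0.63). Atf4, Phgdh and Psat1 hold most UMIs of that sum, so the likeness is mainly to them.

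**Figure D5:**
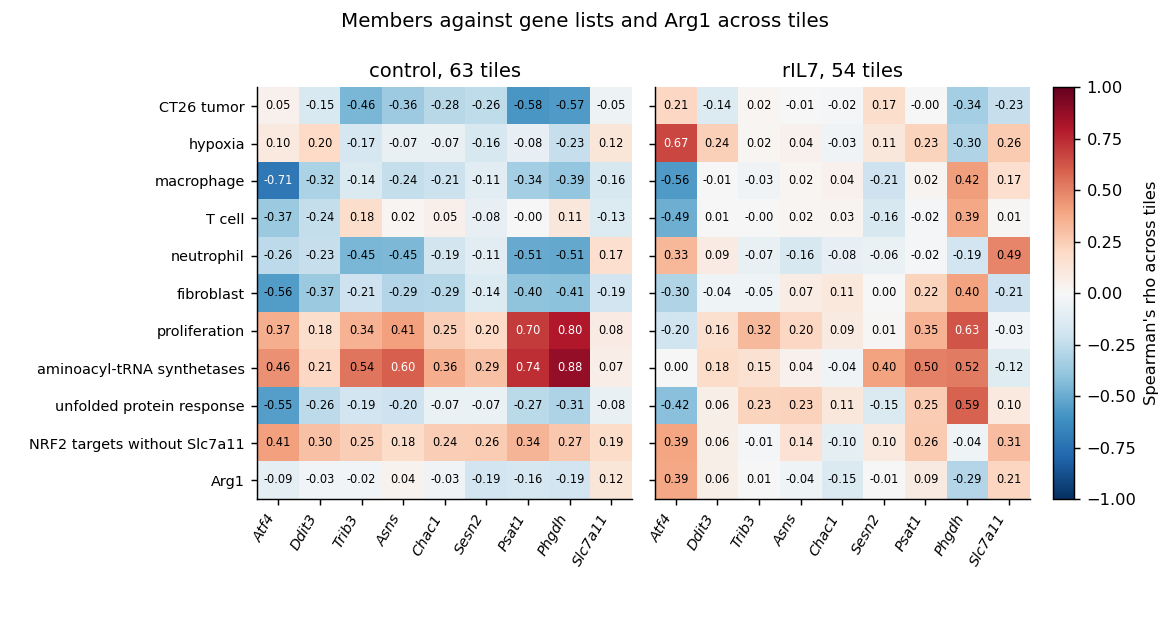
Spearman's rho across 63 control tiles (left) and 54 rIL7 tiles (right) between each of the 9 genes (columns) and the summed CPM of gene lists or Arg1 (rows), from blue for -1 to red for 1. Phgdh and Psat1 go with the synthetases in the control tumor (0.88 and 0.74), and Atf4 runs against macrophage genes in both (-0.71 and -0.56).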

How the data were processed

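Gene counts (UMIs) were deposited by the authors for 2 Visium sections as filtered matrices with spot positions. Per the labels the libraries were 3' spatial libraries, and the submitters' processing notes name Space Ranger 1.1.0 and mm10. The matrices hold raw counts with no normalization, of spots over tissue. Spots with under 10% mitochondrial UMIs and more than 200 detected genes were kept, as the study's methods state. Both files use barcodes of the same array design and share 1702 of them, which mark positions and not cells.

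UMIs were summed over spots and divided by their total (CPM). Ratios carry exact Clopper-Pearson intervals for 2 sums, levels exact Poisson intervals, both at 95%. A gene at 0 UMIs in a group was set to a floor of 3 UMIs. A ratio of at least 1.5 was called where the mean of both groups reached 5 CPM. No test was run, since each group held 1 section. Thinning drew 5900 UMIs per spot without replacement. No doublet caller was run on spots, and no cluster was formed.

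Named genes were the 9 members, Arg1, genes of the lists reported, and the 5 most and 3 least like genes across tiles. The members and all 20 lists were chosen with earlier results of these data known. Ddit3 is carried by 2 features, of which the other had 0 UMIs, and 2 list genes appear in the files under another symbol. Positions are from RefSeq, GRCm38.p6, the same build as mm10. The scripts were tested on simulated data. Alternatives used edgeR 4.0.16 and DESeq2 1.42.0 for scaling factors of the section sums only. Python 3.11.15, numpy 2.4.6, scipy 1.17.1 and R 4.3.3 were used.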

Additional observations from a re-analysis of the deposited data

Results flagged for a closer look

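The edge ratio of Chac1 went opposite ways in the 2 sections: its log2 ratio of edge to interior spots was 0.70 in control tissue and -0.42 under rIL7, which is -1.12 apart. The rIL7 value rested on 10 UMIs at the edge and was 0.01 with the edge taken as 1 grid step. Sesn2 differed in the same way by Arg1 class, with log2 ratios of positive to negative spots of -0.83 in control tissue and 0.33 under rIL7, which is 1.15 apart. The control value rested on 10 UMIs in positive spots and turned to 0.12 under another draw of the thinning. The interval of the rIL7 ratio included 1 (0.929 to 1.69), and its log2 ratio was -0.014 at full depth. Neither difference was tested, as each section is 1 sample.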

How the results depend on the processing

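No paired analysis was possible because each group held 1 section and no test was run. Between the sections no member changed direction in any of 13 alternatives (Trib3 log2 -1.80 to -1.09, Chac1 -1.97 to -0.26, Slc7a11 0.32 to 0.96). Among them, the settings at 2-fold, with a mean of at least 20 CPM and with no CPM minimum change only which genes are called. Their ratios were fixed at the main values. Dropping the spot filter added few spots. TMM and median-of-ratios scaling shift all genes alike, and moved the median of all genes by about 0.01. The splits by CT26 marker tertiles and by hypoxia UMIs were chosen after seeing the data. The count of members past the limit and higher was 0 with spots weighted equally, at 2-fold, with a mean of at least 20 CPM and in the highest CT26 tertile. In these settings 3.65%, 1.46%, 1.97% and 4.63% of all genes tested were past it and higher. The count past the limit and lower was 0 with a mean of at least 20 CPM and 1 in the middle tertile. It was 3 in the lowest and the highest (Ddit3 added), and the median was -0.52 in the lowest tertile. Of all genes tested, 1.27% were past the limit and lower with that mean. In the lowest, middle and highest tertiles 4.15%, 3.72% and 5.08% were. At the control edge the log2 ratio of Chac1 was 0.47 with a 4-step edge, below the limit. With equal weights it was 0.77, beside 0.74 for Trib3 and 0.70 for Slc7a11, while Atf4 (-0.18) and Ddit3 (-0.035) were lower at the edge. At the rIL7 edge the log2 ratio of Slc7a11 ran from 0.37 to 0.72 over the alternatives.

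For Arg1 in the control section, another draw of the thinning gave a median of 0.12 and log2 ratios of 0.28 for Chac1 and 0.12 for Sesn2. Thinning to 8000 UMIs gave a median of 0.078 and 0.14 for Sesn2. No thinning gave -0.026 for Chac1 and -0.26 for Sesn2. At least 2 Arg1 UMIs held for 11 control spots, under the 50 required, so that setting gave no values there. For Arg1 in the rIL7 section, Slc7a11 was below the limit with no thinning (log2 ratio 0.35), another draw or 8000 UMIs. The direction of Slc7a11 was the same in all 6 control alternatives (0.61 to 2.20) and all 7 rIL7 alternatives (0.33 to 0.98). The cause of these shifts was not tested. The share of all genes past the limit was not taken for these Arg1 settings and the edge settings above. Low counts of Trib3, Chac1 and Slc7a11 limit every split of a section.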
